A study of Homo sapiens with 8 samples.

Results

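The change in gene expression with H2O2 was compared between the prostate cancer cell lines 22RV1 and DU145, over all 8 libraries of the series. The study asked how PAGE4, a cancer/testis antigen, acts in prostate cancer cells under oxidative stress, and sequenced RNA from 22RV1 and DU145 cells carrying a doxycycline-inducible lentiviral vector that was empty or held PAGE4. Cells of both constructs received doxycycline, and then PBS or H2O2 at the labelled dose of 200 mM for 12 h before collection. Each of the 8 combinations of line, construct and treatment has 1 library, so the vector pair and the PAGE4 pair were the 2 repeats of the H2O2 change in a line. The p-values rest on the spread between these pairs, which the fit draws strongly toward the spread shared by all genes. A gene whose own 2 pairs disagree can therefore still be called. No spread between repeated cultures enters the p-values. The constructs were introduced by lentivirus and puromycin selection, and nothing in the labels says that a combination was cultured more than once. A gene belongs here when its H2O2 change, H2O2 over PBS, differed between 22RV1 and DU145 by the line by treatment term of edgeR's quasi-likelihood test, with the 4 pairs of libraries as blocks and a Benjamini-Hochberg adjusted p under 0.05. This term was tested for 22418 genes and called 3655, which is 16.3% of them. All changes below are on the log2 scale and are fitted over both pairs of a line, levels are normalized CPM (counts relative to the TMM-scaled library size) with the vector library given before the PAGE4 library, a difference is the 22RV1 change minus the DU145 change, and ± gives the standard error of the fit.

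H2O2 oxidizes protein thiols, lipids and DNA, and mammalian cells answer it with several programmes. The transcription factor NRF2 is released from KEAP1 and switches on antioxidant enzymes through antioxidant response elements, while p53 is stabilized by DNA damage and switches on cell cycle inhibitors and death receptors. Misfolded proteins call on heat shock factors in the cytosol and on the unfolded protein response in the endoplasmic reticulum, and the kinases of the MAPK family switch on immediate early genes. 22RV1 cells keep luminal features of the prostate, whereas DU145 cells lack most of them and are known to carry mutant p53.

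Total counts ranged from 25482984 to 43310401 per library, and mitochondrially encoded genes took 8.97% to 16.5% of them. PAGE4 had 0 or 1 raw counts in the 4 vector libraries and 1001 to 1489 in the 4 PAGE4 libraries. The line labels held for most markers: the summed level of 11 luminal markers was 1246 to 2843 CPM in 22RV1 libraries and 115 to 155 CPM in DU145 libraries. The 12 markers chosen for DU145 summed to 2118 to 2682 CPM in DU145 and 238 to 388 CPM in 22RV1, but not all of them followed. CD44 was as high in 22RV1 as in DU145. LGALS1 had 2772 to 5676 raw counts in 22RV1 and 1173 to 3050 in DU145, and KRT5 had 0 to 3 in every library. Summed markers of fibroblasts, blood and endothelium stayed between 1.1 and 7.3 CPM. Since these are bulk libraries, a smaller share of cells that express a gene and less of its RNA per cell cannot be told apart.

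The difference was higher in 22RV1 for 1964 genes (8.76% of genes tested) and lower in 22RV1 for 1691 genes (7.54%). Counts of list members called below are to be read beside these shares. Sorted by the test of each line, 440 genes (1.96%) were raised in 22RV1 only and 327 (1.46%) were lowered in 22RV1 only, while 849 genes (3.79%) were raised and another 849 (3.79%) were lowered in DU145 only. Opposite directions, with both lines past the test, were found for 252 genes raised in 22RV1 (1.12%) and for 157 genes raised in DU145 (0.7%). A further 169 genes (0.754%) moved the same way with the larger change in 22RV1 and 520 (2.32%) with the larger change in DU145, and 92 genes (0.41%) were called for the difference with neither line past its own test. Both lines also shared much: 1502 genes were raised in both (6.7%) and 1933 were lowered in both (8.62%). The 2 pair changes of one line lay wholly above or below those of the other line for 13395 genes (59.8%), so a separation of the pairs is common here and is only stated below as a description. Counts depended on DU145 pairs and on the blocks: 2121 genes were called without the DU145 PAGE4 pair, 2320 without the DU145 vector pair, and 1533 without the blocks. Without the blocks, 1197 of the genes then called were in 1 line only and 157 were opposite, against 2465 and 409 with them, and without the DU145 PAGE4 pair these counts were 1482 and 241. Of the 3655 genes, 1313 also had an absolute difference over 1, and 906 of these were higher in 22RV1.

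**Figure D1:**
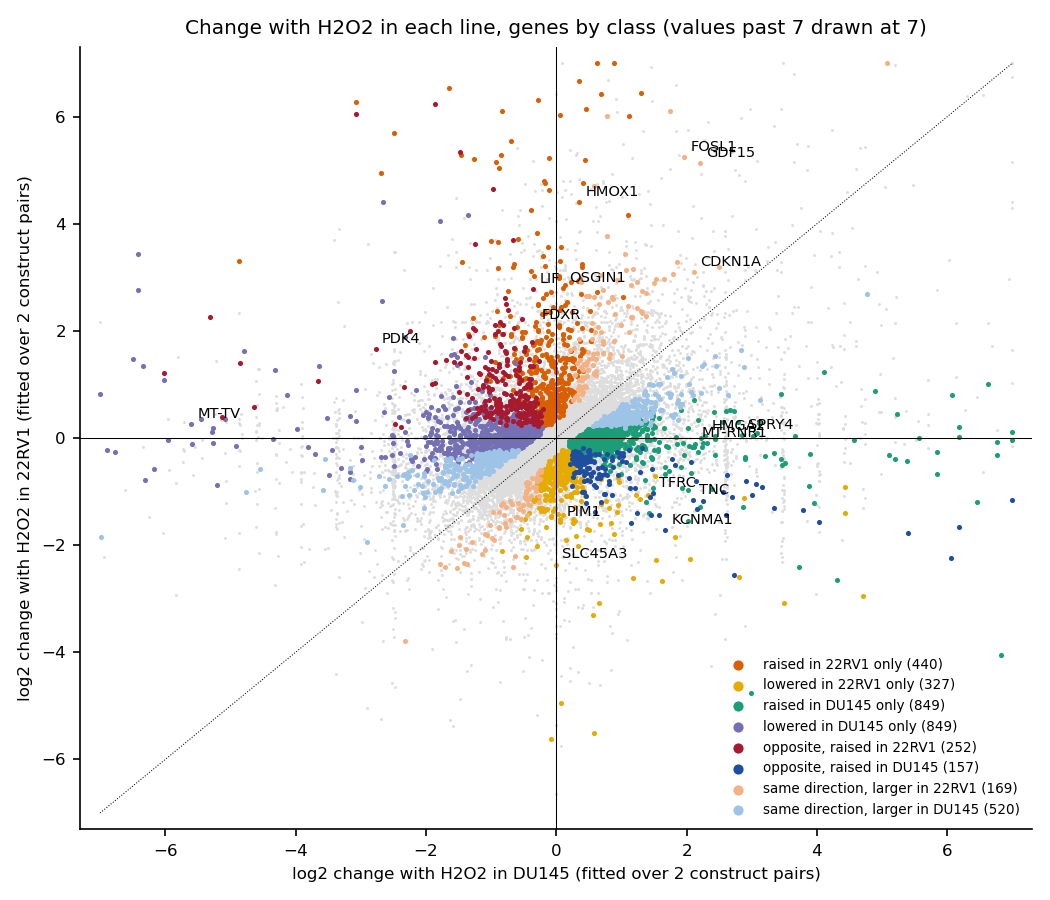
Each point is a gene tested, placed by its fitted log2 change with H2O2 in DU145 (x axis) and in 22RV1 (y axis), with colours for the classes of genes called for the difference, grey for genes not called and a dotted line for equal change. The 440 genes raised in 22RV1 only spread up the vertical axis with HMOX1 at 4.40, the opposite classes fill the upper left (252) and lower right (157) quadrants, and far values of genes with very few reads depend on the prior count of the fit.

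The target genes of NRF2 rose mainly in 22RV1. Of 29 tested NRF2 target genes, 20 had a higher difference in 22RV1 and 1 a lower one. In 22RV1, 20 members were raised and 2 lowered, with a median change of 0.75, whereas in DU145 4 were raised and 11 lowered, with a median change of -0.17. Over all genes tested the medians were -0.00 in 22RV1 and -0.03 in DU145, and 12.8% were raised and 14.9% lowered in 22RV1 and 16.9% raised and 19.8% lowered in DU145. The share of members raised in DU145 was thus near that over all genes. HMOX1, which encodes the heme-degrading enzyme heme oxygenase 1 (chr22:35380361-35394214, GRCh38, plus strand), had a normalized CPM of 3.39 and 6.07 with PBS and 136 and 70.7 with H2O2 in 22RV1. In DU145 it was already 86.8 and 85.5 with PBS and 119.6 and 101 with H2O2. HMOX1 rose in 22RV1 from a few CPM to levels near those that DU145 held with either treatment, and the 2 pair changes of 22RV1 were both above those of DU145. The fitted change was 4.40 ± 0.25 in 22RV1 and 0.35 ± 0.20 in DU145, a difference of 4.05 ± 0.32 (edgeR adjusted p = 1.43e-07).

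OSGIN1, an oxidative stress induced growth inhibitor, was also raised in 22RV1 only. It had 8.02 and 7.94 with PBS and 72.8 and 41.9 with H2O2 in 22RV1, against 119 and 115 with PBS and 117 and 135 with H2O2 in DU145, and the difference was 2.71 ± 0.19 (edgeR adjusted p = 4.37e-08). SRXN1, the sulfiredoxin that repairs overoxidized peroxiredoxins, had 1.10 and 0.275 with PBS and 6.22 and 6.68 with H2O2 in 22RV1 and 5.59 and 21.5 with PBS and 14.3 and 15.7 with H2O2 in DU145. The 2 DU145 pairs moved in opposite directions, and with a difference of 2.85 ± 0.55 (edgeR adjusted p = 0.00169) the gene was raised in 22RV1 only. The call was lost without the blocks (adjusted p = 0.055) and in DESeq2 (adjusted p = 0.0731). ABCC3, an exporter of glutathione and glucuronide conjugates, was at or below 1.16 CPM in every 22RV1 library, while in DU145 it fell from 283 and 279 CPM to 144 and 120 CPM. Its directions were opposite, with a difference of 2.42 ± 0.32 (edgeR adjusted p = 4.83e-05). Malic enzyme ME1, which supplies NADPH, had 7.05 and 3.92 with PBS and 13.3 and 10.5 with H2O2 in 22RV1 and 82.8 and 88.2 with PBS and 75.9 and 75.8 with H2O2 in DU145, a difference of 1.31 ± 0.18 (edgeR adjusted p = 5.88e-05). The next 4 members were picked after their values were seen. NQO1, the quinone reductase, changed by 1.63 in 22RV1 (edgeR adjusted p = 1.52e-09) and -0.49 in DU145 (edgeR adjusted p = 0.000207), thioredoxin reductase TXNRD1 by 1.65 and 0.22, and the glutathione synthesis subunit GCLM by 1.41 and 0.32. The other glutathione synthesis subunit, GCLC, was the member with the lower difference, at -0.43 in 22RV1 and 0.14 in DU145. All 29 members had the lower PBS level in 22RV1: the median of the log2 ratio of 22RV1 over DU145 was -2.20 with PBS and -1.16 with H2O2.

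The promoters of OSGIN1 and ME1 are shown because both genes responded in 22RV1 only and both windows hold the antioxidant response element, spelled TGANNNNGC and searched on both strands. The sequences are from RefSeq on GRCh38.p14 and run from 250 bases before the start site to 50 bases after it, 5′ to 3′ on the strand of the gene, with the matches in capitals. OSGIN1 lies on the plus strand (chr16:83952990-83953289), with matches starting at -124 and -99 from the start site, and ME1 on the minus strand (chr6:83431002-83431301), with matches at -137 and 12. In each promoter 1 of these matches overlaps an AP-1 site (TGANTCA), which 7.76% of all promoters hold.
OSGIN1: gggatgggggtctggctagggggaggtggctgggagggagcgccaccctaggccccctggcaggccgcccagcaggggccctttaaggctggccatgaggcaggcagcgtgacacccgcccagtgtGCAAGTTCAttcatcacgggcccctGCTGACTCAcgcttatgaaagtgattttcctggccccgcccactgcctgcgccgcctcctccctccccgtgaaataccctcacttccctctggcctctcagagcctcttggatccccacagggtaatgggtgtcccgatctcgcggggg
ME1: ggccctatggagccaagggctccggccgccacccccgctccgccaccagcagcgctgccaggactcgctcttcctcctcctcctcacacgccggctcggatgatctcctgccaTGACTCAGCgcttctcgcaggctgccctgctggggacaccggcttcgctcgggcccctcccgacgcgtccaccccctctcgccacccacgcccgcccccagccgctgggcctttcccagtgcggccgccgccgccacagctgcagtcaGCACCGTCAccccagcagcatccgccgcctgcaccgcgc
Such matches are frequent. They were found in 42.1% of all 27305 promoters of this length, in 12 of the 20 NRF2 target promoters in the table (60.0%), and in 38.1% of 312 promoters of genes raised in 22RV1 only. Mitosis gene promoters held them in 64.7%, so the share is not particular to NRF2 targets. The window of SRXN1, also raised in 22RV1 only, held no match.

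Of 22 tested genes on a list of peroxide-removing enzymes, 6 had a higher and 1 a lower difference, with median changes of -0.17 in 22RV1 and -0.20 in DU145. The share called for the difference was 31.8%, against 16.3% of all genes. The list also holds sestrins and the glutaredoxin GLRX2, which do not remove peroxide directly. SESN1 and SESN3 were among the higher calls, and GLRX2 was the lower one. Without the blocks 3 members were called higher. SOD1, the cytosolic superoxide dismutase, had 118 and 126 with PBS and 132 and 127 with H2O2 in 22RV1 and 279.9 and 273 with PBS and 237 and 281 with H2O2 in DU145. Its difference was 0.19 ± 0.12 (edgeR adjusted p = 0.337), and neither line passed its own test. The secreted glutathione peroxidase GPX3 had 4.09 and 2.72 with PBS and 8.03 and 3.46 with H2O2 in 22RV1 and 63.4 and 59.5 with PBS and 53.4 and 38.0 with H2O2 in DU145. GPX3 was called in opposite directions, with a difference of 1.17 ± 0.22 (edgeR adjusted p = 0.00156), but it was 0.74 without the 22RV1 vector pair, and without the blocks the call was lost (adjusted p = 0.148). Among 13 metallothioneins and zinc genes, 2 had a higher and 1 a lower difference, a share of 23.1% against 16.3% of all genes. None of the 3 calls was made without the blocks. These metal binders have close paralogs whose reads may be shared.

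**Figure D2:**
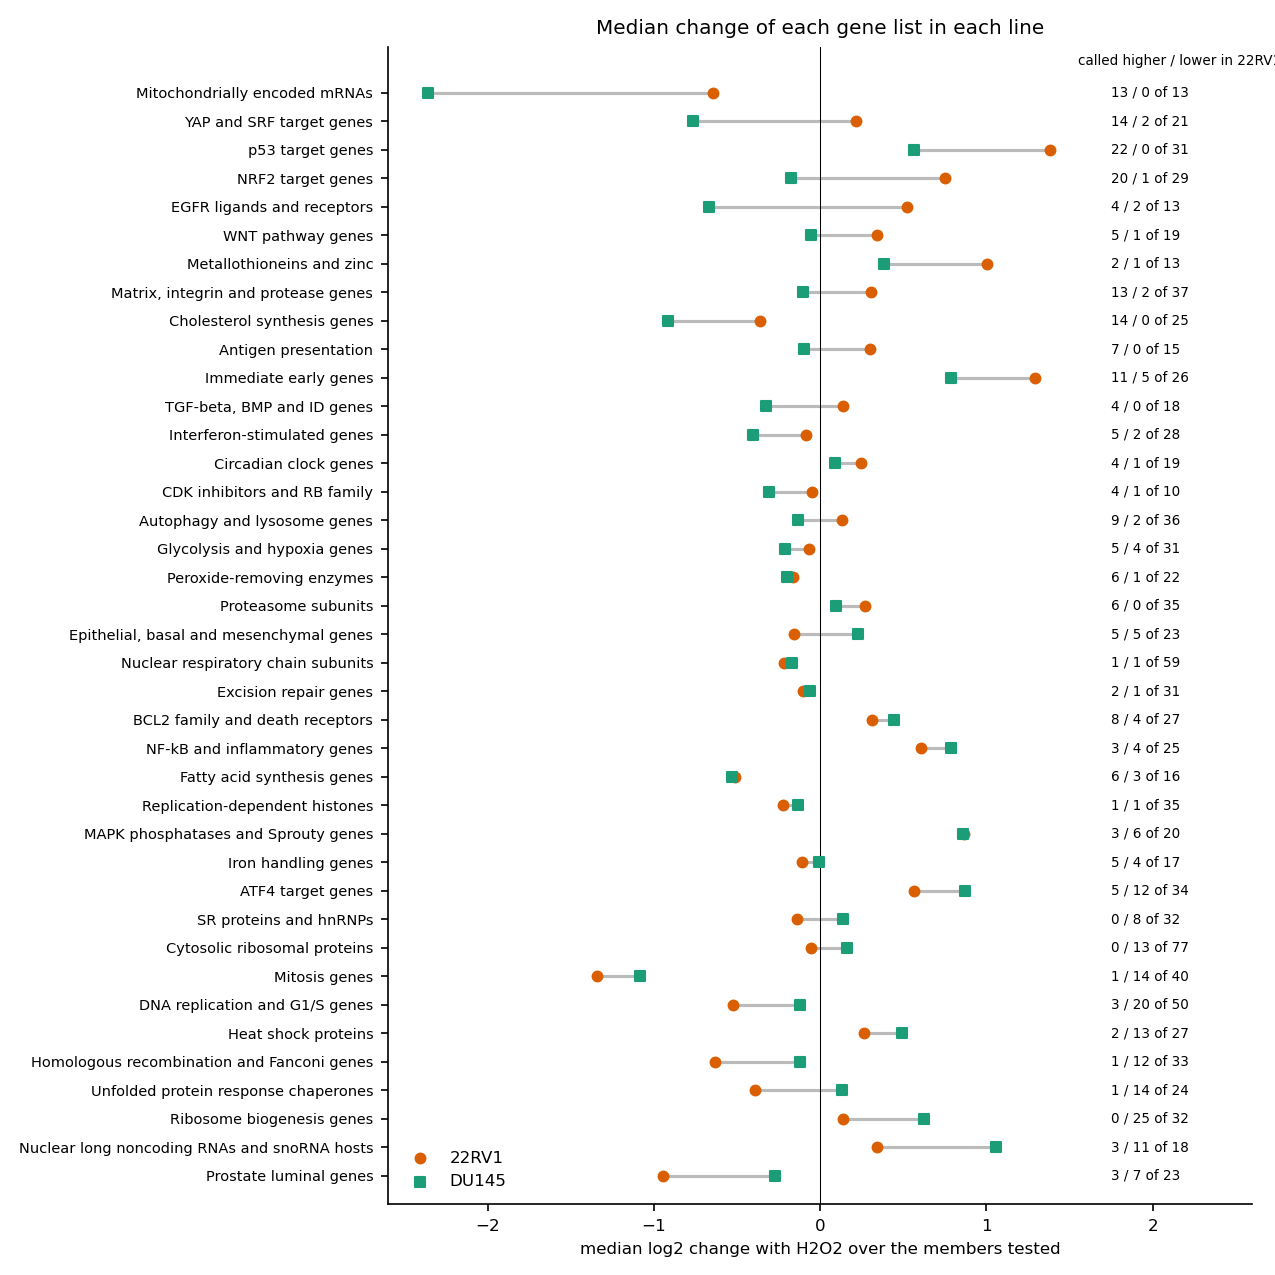
Points give the median log2 change with H2O2 (x axis) over the tested members of each of 39 gene lists (y axis), circles for 22RV1 and squares for DU145, with lists ordered by their median difference. The text at the right counts members called with a higher or lower difference in 22RV1 of those tested, such as 22 and 0 of 31 for the p53 target genes and 0 and 25 of 32 for the ribosome biogenesis genes.

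The target genes of p53 rose in more members and further in 22RV1. Of 31 tested, 29 were raised and 0 lowered in 22RV1, against 19 raised and 6 lowered in DU145, with median changes of 1.38 and 0.56. The difference was higher in 22RV1 for 22 members and lower for 0, where 8.76% of all genes tested were called higher. FDXR, the mitochondrial ferredoxin reductase, had 17.1 and 22.5 with PBS and 79.0 and 89.1 with H2O2 in 22RV1 and 24.6 and 27.3 with PBS and 22.4 and 19.1 with H2O2 in DU145. It rose about as far in both 22RV1 pairs and fell slightly in both DU145 pairs, without passing the test there (edgeR adjusted p = 0.05004), so that its difference was 2.42 ± 0.17 (edgeR adjusted p = 5.06e-08). The death receptor FAS had 5.91 and 9.21 with PBS and 33.0 and 32.0 with H2O2 in 22RV1 and 10.7 and 9.33 with PBS and 8.11 and 10.2 with H2O2 in DU145, with a difference of 2.27 ± 0.26 (edgeR adjusted p = 1.27e-05). PHLDA3, a repressor of AKT, rose in both lines, by 3.04 ± 0.14 in 22RV1 and 0.67 ± 0.13 in DU145.

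CDKN1A, the CDK inhibitor p21, had 142 and 172 with PBS and 1354 and 1338 with H2O2 in 22RV1 and 48.9 and 49.7 with PBS and 199 and 229 with H2O2 in DU145. It was raised in both lines, and the difference of 0.99 ± 0.12 (edgeR adjusted p = 1.41e-05) was smaller than either change. GDF15, a stress cytokine, was counted here among both the p53 and the ATF4 target genes. It had 33.8 and 47.0 with PBS and 1459 and 1332 with H2O2 in 22RV1 and 2.85 and 3.76 with PBS and 16.5 and 14.1 with H2O2 in DU145. It rose in both lines, by 5.13 ± 0.13 and 2.21 ± 0.17, with a difference of 2.92 ± 0.23 (edgeR adjusted p = 1.29e-07). Opposite directions were found for DDB2, a damage sensor of nucleotide excision repair, which changed by 1.08 ± 0.12 in 22RV1 and -0.55 ± 0.12 in DU145. XPC, another damage sensor of this pathway, was raised in both lines, by 1.14 ± 0.10 and 0.40 ± 0.11. Among 27 tested BCL2 family members and death receptors, 8 had a higher and 4 a lower difference. Without the blocks 5 members were called higher and 1 lower, without the 22RV1 vector pair 7 lower, without the DU145 vector pair 2 lower and without the DU145 PAGE4 pair 2 lower. The BH3-only gene BMF was raised in 22RV1 (0.86 ± 0.16) and lowered in DU145 (-1.499 ± 0.22), and the survival gene BCL2 went the other way, -0.80 ± 0.20 in 22RV1 and 0.81 ± 0.27 in DU145. Decoy receptor TNFRSF10D was raised in 22RV1 only (1.40 ± 0.14, against -0.02 ± 0.14 in DU145), as was SESN1, a p53-dependent sestrin (1.73 ± 0.17, against 0.17 ± 0.20).

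**Figure D3:**
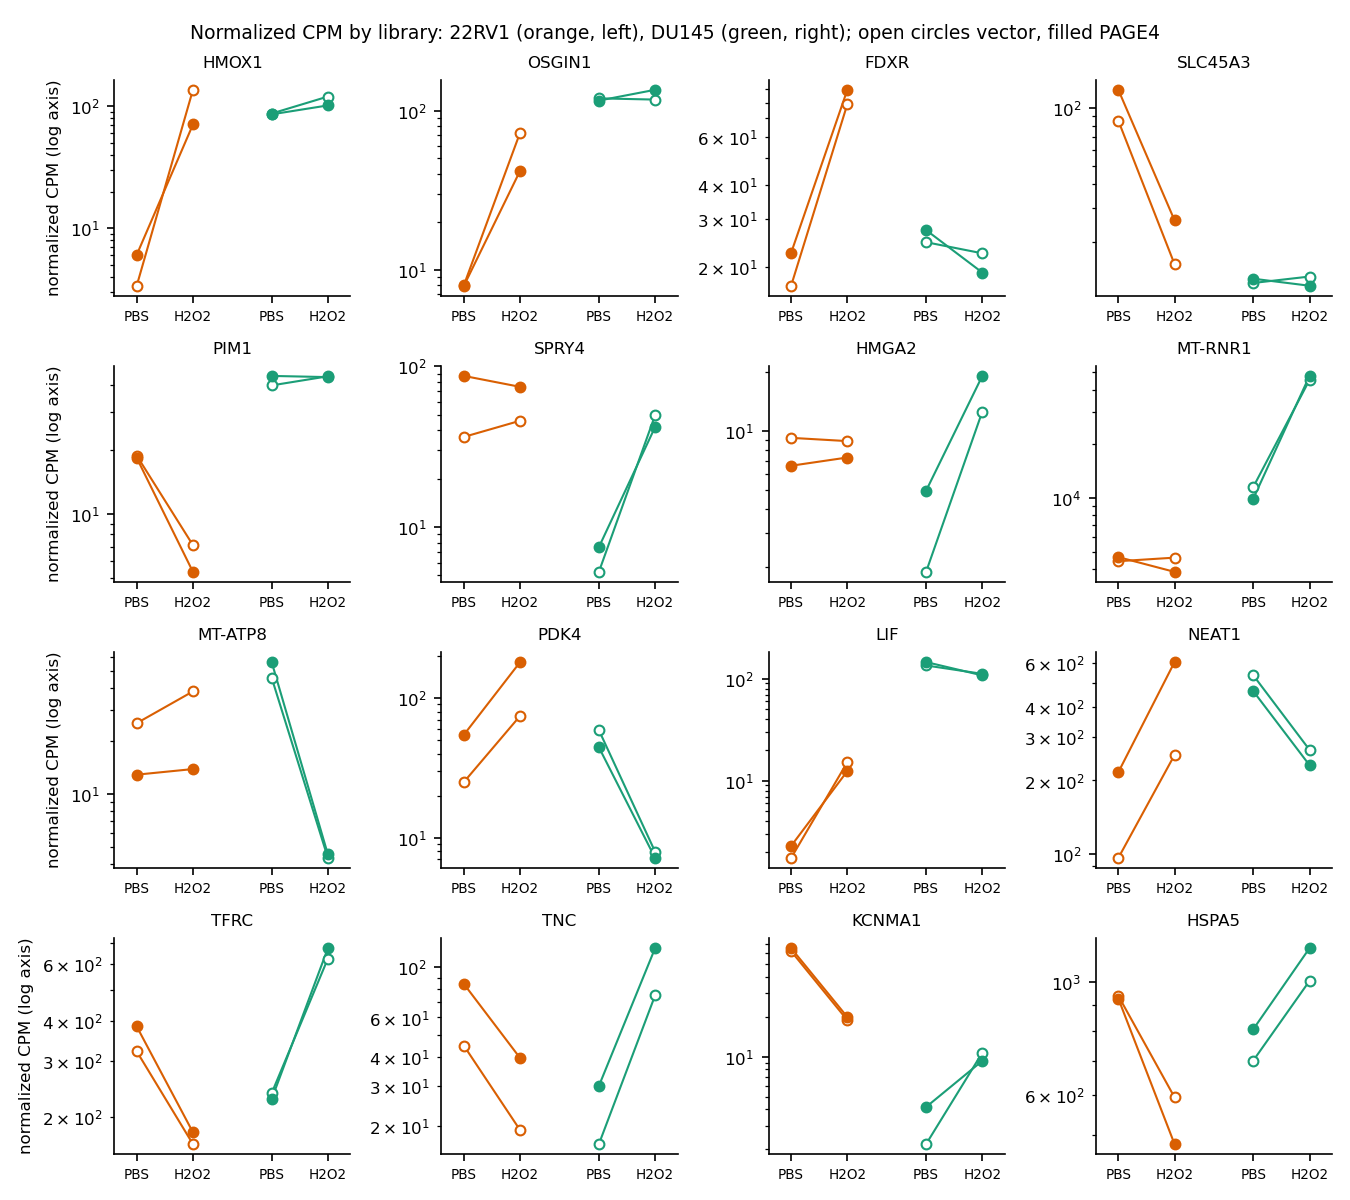
Normalized CPM (log axis) of 16 genes in every library, with 22RV1 at the left and DU145 at the right of each panel, open circles for vector, filled circles for PAGE4 and lines that join the PBS and H2O2 libraries of a construct. In all 16 panels the slopes of the 2 pairs of 22RV1 do not overlap those of DU145, which the choice of class genes required and which held for 59.8% of all genes tested, as for HMOX1 (difference 4.05), SPRY4 (-2.80) and TFRC (-2.51).

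Immediate early genes, which MAPK signalling switches on, rose in both lines. Of 26 immediate early genes, 24 were raised in 22RV1 and 18 in DU145, and the difference was higher for 11 and lower for 5. The share called for the difference was 61.5%, against 16.3% of all genes. Without the blocks 4 members were called higher and 3 lower. The nuclear receptor NR4A3 had 1.302 and 1.42 with PBS and 10.9 and 10.0 with H2O2 in 22RV1 and 5.30 and 7.01 with PBS and 7.79 and 7.69 with H2O2 in DU145. It was raised in 22RV1 only, with a difference of 2.599 ± 0.31 (edgeR adjusted p = 2.00e-05). FOSL1, the AP-1 subunit FRA1, had 0.674 and 0.325 with PBS and 32.7 and 5.98 with H2O2 in 22RV1 and 98.7 and 142 with PBS and 447 and 479 with H2O2 in DU145. FOSL1 rose in both lines from very unequal PBS levels, in 22RV1 mostly in the vector pair; its difference of 3.27 ± 0.26 (edgeR adjusted p = 1.96e-07) was 2.17 without that pair and was not called without the blocks (adjusted p = 0.0663). CYR61, a matricellular protein, was raised in 22RV1 (1.596 ± 0.19) and lowered in DU145 (-0.77 ± 0.14).

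Among 20 MAPK phosphatases and Sprouty genes, which restrain ERK signalling, 14 were raised in 22RV1 and 17 in DU145, and none was lowered in either line. The difference was higher for 3 and lower for 6, a share of 45.0% against 16.3% of all genes. Without the 22RV1 PAGE4 pair 7 members were called higher. SPRY4 (chr5:142310427-142326455, minus strand) had 36.3 and 87.0 with PBS and 45.8 and 74.4 with H2O2 in 22RV1 and 5.26 and 7.49 with PBS and 49.6 and 41.9 with H2O2 in DU145. The 2 constructs of 22RV1 moved in opposite directions by little, while both DU145 pairs rose from a few CPM into the range of the 22RV1 libraries. Its difference was -2.80 ± 0.22 (edgeR adjusted p = 1.68e-07). DUSP4, a nuclear MAPK phosphatase, had the larger change in 22RV1, with 20.9 and 14.4 with PBS and 152 and 114 with H2O2 in 22RV1 and 55.1 and 61.9 with PBS and 66.0 and 87.9 with H2O2 in DU145, with a difference of 2.54 ± 0.14 (edgeR adjusted p = 1.77e-09). DUSP2 and DUSP7 were raised in DU145 only, by 1.497 ± 0.21 and 1.21 ± 0.13. Of 13 EGFR ligands and receptors, 4 had a higher and 2 a lower difference, a share of 46.2% against 16.3% of all genes. Without the blocks 2 members were called higher. The ligand AREG (amphiregulin) was raised in 22RV1 only (2.85 ± 0.17, from 1.84 and 0.574 CPM with PBS), with DU145 at 165 CPM or more in every library. The receptor ERBB2 was raised in 22RV1 (0.52 ± 0.09) and lowered in DU145 (-1.09 ± 0.10). EGFR went the other way, -0.44 ± 0.10 and 0.38 ± 0.10, but differed between the 22RV1 constructs already with PBS (201 and 45.7 CPM), and its difference was not called without the blocks (adjusted p = 0.538).

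For protein folding genes the difference was more often lower in 22RV1. Of 27 heat shock genes, 13 were raised and 7 lowered in 22RV1, and 16 were raised and 1 lowered in DU145. The median changes were 0.26 and 0.50, so the typical member rose in both lines. A lower difference in 22RV1 was called for 13 and a higher one for 2, where 7.54% of all genes tested were called lower. Without the blocks 7 members were called lower and without the 22RV1 PAGE4 pair 4 higher. HSPA8, the constitutive cytosolic HSP70, had 1752 and 2090 with PBS and 1496 and 1900 with H2O2 in 22RV1 and 927 and 988 with PBS and 2267 and 2491 with H2O2 in DU145. It fell slightly in 22RV1 and rose over 2-fold in both DU145 pairs, a difference of -1.495 ± 0.09 (edgeR adjusted p = 3.89e-09). The stress-inducible HSPA1B, a near copy of HSPA1A with which reads may be shared, was raised in both lines, by 0.58 ± 0.14 in 22RV1 and 1.90 ± 0.14 in DU145. In 22RV1 it went from 69.2 to 140 CPM in the vector pair but only from 78.4 to 85.4 CPM in the PAGE4 pair. The strictly inducible HSPA6 had 55.7 CPM in the 22RV1 vector library with H2O2 but 0.707 CPM in the 22RV1 PAGE4 library with H2O2, and without the vector pair of 22RV1 its difference turned from 2.497 to -2.36. The call for HSPA6 was also lost without the blocks (adjusted p = 0.589) and in DESeq2 (adjusted p = 0.891).

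The unfolded protein response held genes that moved in opposite directions. Of 24 chaperones and regulators of the endoplasmic reticulum, 14 had a lower and 1 a higher difference. The share called was 62.5%, against 16.3% of all genes. In 22RV1, 4 were raised and 15 lowered, in DU145, 11 were raised and 9 lowered, and the median changes were -0.39 and 0.13. Without the blocks 7 members were called lower. HSPA5, the chaperone BiP (chr9:125234853-125241382, minus strand), had 938 and 927 with PBS and 593 and 480.1 with H2O2 in 22RV1 and 700.4 and 807 with PBS and 1004 and 1164 with H2O2 in DU145. Every 22RV1 library with H2O2 was below every 22RV1 library with PBS, and the reverse held in DU145, for a difference of -1.33 ± 0.10 (edgeR adjusted p = 1.35e-07). HERPUD1, a component of degradation at the endoplasmic reticulum, and HYOU1, a large HSP70 relative of its lumen, were also opposite, with changes of -0.36 ± 0.09 and -0.61 ± 0.07 in 22RV1 and 0.85 ± 0.09 and 0.42 ± 0.07 in DU145. HSP90B1, the chaperone GRP94, had 1649 and 1416 with PBS and 738 and 608 with H2O2 in 22RV1 and 646 and 631 with PBS and 524 and 541 with H2O2 in DU145. It was lowered in both lines and further in 22RV1, a difference of -0.93 ± 0.09 (edgeR adjusted p = 2.52e-06). XBP1, a transcription factor of this response, was raised in both (0.42 and 0.81) and was singled out after its values were seen.

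The promoters of HSPA5 and HSP90B1 are shown because both genes fell in 22RV1 and both windows hold the ER stress element, a CCAAT box followed by CCACG after 9 bases of any kind, on either strand. HSPA5 lies at chr9:125241294-125241593 and HSP90B1 at chr12:103930160-103930459 of GRCh38.p14, the first on the minus and the second on the plus strand, and the capitals mark the element, which starts at -66 in HSPA5 and at -194 and -89 in HSP90B1.
HSPA5: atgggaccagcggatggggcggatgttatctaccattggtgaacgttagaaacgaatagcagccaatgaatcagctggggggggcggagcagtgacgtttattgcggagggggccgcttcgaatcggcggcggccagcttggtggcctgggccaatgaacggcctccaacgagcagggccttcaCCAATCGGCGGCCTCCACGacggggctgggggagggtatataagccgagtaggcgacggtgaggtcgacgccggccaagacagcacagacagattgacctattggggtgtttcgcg
HSP90B1: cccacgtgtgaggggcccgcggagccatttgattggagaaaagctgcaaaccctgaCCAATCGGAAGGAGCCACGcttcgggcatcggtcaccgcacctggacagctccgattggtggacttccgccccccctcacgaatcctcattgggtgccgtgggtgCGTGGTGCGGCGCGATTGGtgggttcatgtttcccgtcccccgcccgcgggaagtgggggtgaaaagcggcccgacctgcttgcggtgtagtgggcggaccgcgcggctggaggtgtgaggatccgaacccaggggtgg
The element was found in 6 of 22 promoters of the list (27.3%) and in 0.0806% of all promoters, and the CCAAT box alone in 86.4% of the list and 35.7% of all promoters.

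Targets of ATF4, the transcription factor of the integrated stress response, rose in both lines: 25 of 34 were raised in 22RV1 and 29 in DU145, with 5 higher and 12 lower differences. The share called for the difference was 50.0%, against 16.3% of all genes. Without the blocks 3 members were called higher and 4 lower and without the DU145 vector pair 6 lower. CHAC1, which degrades glutathione, had 5.28 and 3.27 with PBS and 37.7 and 20.4 with H2O2 in 22RV1 and 47.1 and 60.7 with PBS and 131 and 136 with H2O2 in DU145. It was raised in both, with a difference of 1.44 ± 0.16 (edgeR adjusted p = 1.08e-05). SLC7A11, the cystine importer, was raised in 22RV1 only (1.48 ± 0.09, against 0.17 ± 0.09 in DU145), and ATF5 in DU145 only (0.90 ± 0.12, against -0.02 ± 0.11 in 22RV1), although the call for ATF5 was lost without the blocks (adjusted p = 0.106).

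Genes for making ribosomes rose mainly in DU145. Of 32 ribosome biogenesis genes, 30 were raised in DU145 and 0 lowered, against 9 raised and 5 lowered in 22RV1, with median changes of 0.63 and 0.14. The difference was lower in 22RV1 for 25 members and higher for 0, where 7.54% of all genes tested were called lower. Without the blocks 16 members were called lower. NOP16, a nucleolar protein of the large subunit pathway, had 47.8 and 48.0 with PBS and 48.3 and 53.4 with H2O2 in 22RV1 and 35.6 and 40.6 with PBS and 81.6 and 71.0 with H2O2 in DU145. It rose in both DU145 pairs and stayed within a few CPM in 22RV1, a difference of -0.92 ± 0.15 (edgeR adjusted p = 0.000463). The nucleolar helicase DDX21 was raised by 0.20 ± 0.07 in 22RV1 and 1.06 ± 0.07 in DU145, and NOP58, a core protein of box C/D snoRNPs, was raised in DU145 only (0.81 ± 0.08, against -0.03 ± 0.08). Among 77 cytosolic ribosomal proteins, 28 were raised in DU145 and 0 in 22RV1, and 13 had a lower and 0 a higher difference. Over all genes tested, 16.9% were raised in DU145 and 12.8% in 22RV1. The share of these proteins called for the difference was 16.9%, near the 16.3% of all genes. Without the blocks 0 members were called lower, without the 22RV1 vector pair 50 lower, without the DU145 vector pair 7 lower and without the DU145 PAGE4 pair 3 lower. RPS18, a protein of the small subunit, had a difference of -0.41 ± 0.10 (edgeR adjusted p = 0.00738) and was not called without the blocks (adjusted p = 0.163).

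Among 18 nuclear long noncoding RNAs and snoRNA hosts, 11 had a lower and 3 a higher difference. SNHG1 had 55.1 and 57.0 with PBS and 75.6 and 71.3 with H2O2 in 22RV1 and 115 and 119 with PBS and 397 and 409 with H2O2 in DU145, and SNHG8 was raised in DU145 only (1.39 ± 0.13, against 0.01 ± 0.12). Both DU145 pairs of SNHG1 rose over 3-fold, with a difference of -1.39 ± 0.11 (edgeR adjusted p = 1.93e-07). NEAT1, the scaffold of paraspeckles, was among the 3, with 96.7 and 216 with PBS and 254 and 607 with H2O2 in 22RV1 and 536 and 462 with PBS and 267 and 231 with H2O2 in DU145. It rose in both pairs of 22RV1 and fell in both pairs of DU145, a difference of 2.45 ± 0.10 (edgeR adjusted p = 7.08e-11). Of 32 SR proteins and hnRNPs, 8 had a lower and 0 a higher difference, a share of 25.0% against 16.3% of all genes. Among the 8 were SRSF1, which changed by -0.31 ± 0.08 in 22RV1 and 0.78 ± 0.08 in DU145, and SRSF2 (-0.19 ± 0.08 and 0.69 ± 0.08). Without the blocks 5 members were called lower, without the 22RV1 vector pair 15 lower and without the DU145 PAGE4 pair 5 lower.

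Mitochondrially encoded transcripts differed between the lines in nearly every member. They are made as long precursors from both strands and cut into rRNAs, tRNAs and mRNAs. All 13 mitochondrial mRNAs were lowered in DU145, with a median change of -2.36, and all 13 had a higher difference in 22RV1, where 9 were lowered and 2 raised, with a median of -0.64. MT-ND1, a subunit of respiratory complex I, had 4988 and 3374 with PBS and 6020 and 3991 with H2O2 in 22RV1 and 10040 and 8807 with PBS and 1772 and 1604 with H2O2 in DU145. It was slightly raised in both 22RV1 pairs and lost most of its level in both DU145 pairs, a difference of 2.74 ± 0.08 (edgeR adjusted p = 4.94e-13). MT-ATP8, a small subunit of ATP synthase whose gene overlaps MT-ATP6, had 25.2 and 12.9 with PBS and 38.2 and 13.9 with H2O2 in 22RV1 and 45.7 and 56.1 with PBS and 4.34 and 4.54 with H2O2 in DU145, with a difference of 3.88 ± 0.21 (edgeR adjusted p = 1.91e-09).

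Mitochondrial tRNAs, which short-read libraries capture poorly, fell further still. All 22 tested were lowered in DU145, and 21 had a higher difference. Over the 12 tRNAs with more than 3 raw counts in every library, the change in DU145 ranged from -6.02 to -3.07 with a median of -4.44, against a median of 0.29 in 22RV1. MT-TV had 9.61 and 7.91 with PBS and 13.6 and 7.88 with H2O2 in 22RV1 and 55.6 and 57.4 with PBS and 1.89 and 0.478 with H2O2 in DU145, and MT-TC 34.6 and 24.4 with PBS and 51.2 and 28.2 with H2O2 in 22RV1 and 111 and 112 with PBS and 4.34 and 2.15 with H2O2 in DU145. In both tRNAs the DU145 PAGE4 library with H2O2 was lower than the vector library, and both were far below every PBS library of that line. The differences were 5.87 ± 0.36 (edgeR adjusted p = 8.63e-09) for MT-TV and 5.52 ± 0.23 (edgeR adjusted p = 7.19e-11) for MT-TC. MT-TL1, MT-TY and MT-TE differed by 5.21, 5.80 and 4.32.

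The rRNAs did not follow. MT-RNR1, the 12S rRNA (648 to 1601 of chromosome M, plus strand), had 4415 and 4655 with PBS and 4622 and 3850 with H2O2 in 22RV1 and 11460 and 9860 with PBS and 45320 and 47730 with H2O2 in DU145. Both DU145 pairs rose about 4-fold or more while 22RV1 stayed within its PBS range or just below it, a difference of -2.23 ± 0.10 (edgeR adjusted p = 1.78e-10). MT-RNR2, the 16S rRNA from the same precursor, had 34970 and 29390 with PBS and 30730 and 25440 with H2O2 in 22RV1 and 53890 and 47380 with PBS and 48720 and 45560 with H2O2 in DU145, with a difference of -0.10 ± 0.06 (edgeR adjusted p = 0.336). In map order, of the 15 genes before MT-CO1, 6 were raised and 2 lowered in 22RV1, and of the 22 genes from MT-CO1 on, 1 was raised and 11 were lowered; this split was chosen after the values were seen. In DU145, 13 and 22 of these were lowered. Of 59 nuclear genes of the respiratory chain 1 had a higher and 1 a lower difference, a share of 3.39% against 16.3% of all genes. Removing the mitochondrial genes before scaling left 3725 genes called for the difference.

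**Figure D4:**
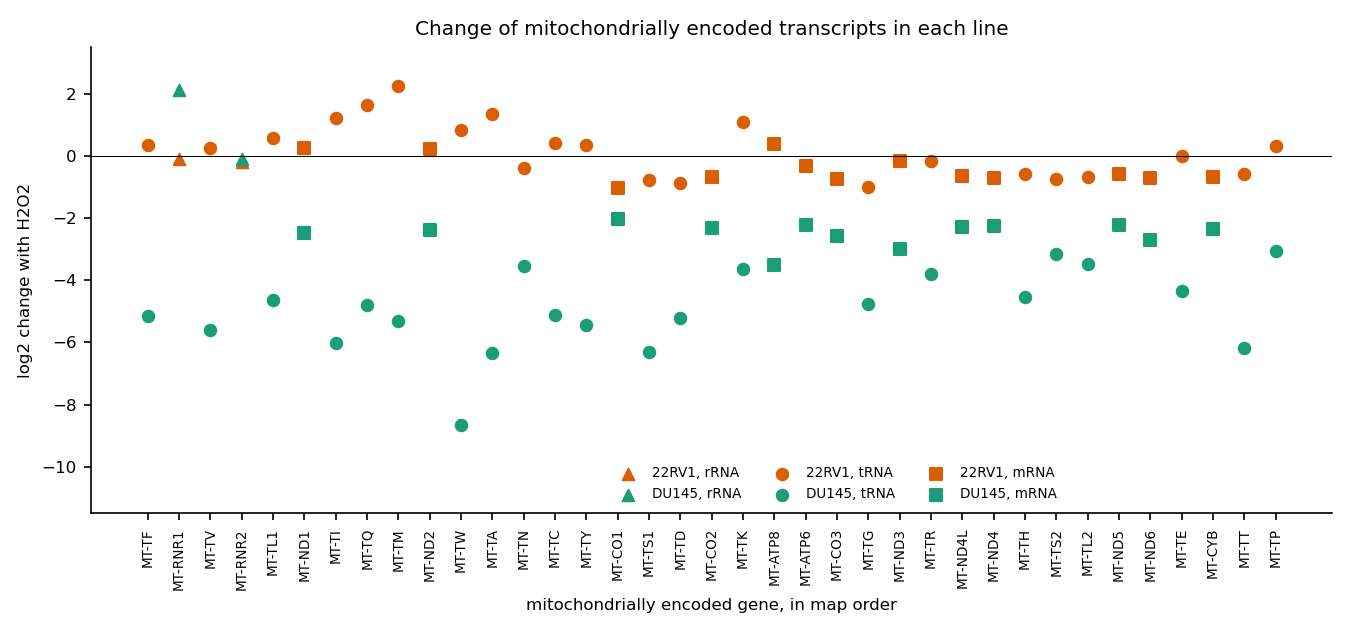
Fitted log2 change with H2O2 (y axis) of 37 mitochondrially encoded transcripts in map order (x axis), orange for 22RV1 and green for DU145, with triangles for rRNAs, circles for tRNAs and squares for mRNAs. Every mRNA and tRNA of DU145 lies between -2 and -9 while MT-RNR1 lies at 2.13, and values of tRNAs with reads near 0, such as MT-TW, depend on the prior count of the fit.

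Mitosis genes fell in both lines, and some fell further in 22RV1. Of 40 mitosis genes, 39 were lowered in 22RV1 and 40 in DU145, with medians of -1.34 and -1.08, and 14 had a lower and 1 a higher difference. The share called for the difference was 37.5%, against 16.3% of all genes. The mitotic kinase PLK1 had 179.8 and 156 with PBS and 33.7 and 29.0 with H2O2 in 22RV1 and 181 and 215 with PBS and 65.1 and 72.4 with H2O2 in DU145. It fell in all 4 pairs, with a difference of -0.90 ± 0.12 (edgeR adjusted p = 4.84e-05). Without the blocks 5 members were called lower, without the 22RV1 vector pair 28 lower and without the DU145 PAGE4 pair 5 lower. CDC25B, a phosphatase that activates mitotic CDK, was the member lowered in DU145 only (-1.06 ± 0.08, against -0.17 ± 0.08). For 50 genes of DNA replication and G1/S, 36 were lowered and 0 raised in 22RV1, while 21 were lowered and 11 raised in DU145. A lower difference was called for 20 and a higher one for 3, a share of 46.0% against 16.3% of all genes. Without the DU145 PAGE4 pair 13 members were called lower.

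MCM7, a subunit of the replicative helicase, had 603 and 647 with PBS and 374 and 380.3 with H2O2 in 22RV1 and 217 and 237 with PBS and 254 and 292 with H2O2 in DU145. It fell in 22RV1 and rose slightly in DU145, a difference of -0.99 ± 0.10 (edgeR adjusted p = 2.99e-06). UHRF1, which maintains DNA methylation, was lowered in 22RV1 only (-0.89 ± 0.08, against 0.10 ± 0.08), and CCND1, the G1 cyclin D1, was lowered in 22RV1 (-0.41 ± 0.09) and raised in DU145 (0.85 ± 0.09). Homologous recombination and Fanconi genes followed, with 12 lower and 1 higher difference of 33; 26 were lowered in 22RV1 and 12 in DU145. Without the blocks 3 members were called lower, without the DU145 vector pair 7 lower and without the DU145 PAGE4 pair 4 lower. The checkpoint kinase CHEK1 was opposite, -0.55 ± 0.13 in 22RV1 and 0.50 ± 0.13 in DU145, as was UNG, the uracil glycosylase of base excision repair (-0.89 ± 0.08 and 0.25 ± 0.08). The retinoblastoma gene RB1 and the CDK inhibitor CDKN1B fell in DU145, with changes of -1.20 ± 0.10 and -0.69 ± 0.09, against -0.35 ± 0.10 and 0.02 ± 0.08 in 22RV1, and of 10 CDK inhibitors and RB family genes 4 had a higher and 1 a lower difference. Of 35 replication-dependent histones 1 had a higher and 1 a lower difference, and of 31 excision repair genes 2 a higher and 1 a lower. These shares, 5.71% and 9.68%, were below the 16.3% called over all genes tested.

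Of 25 cholesterol synthesis genes, 18 were lowered in 22RV1 and 23 in DU145, with medians of -0.36 and -0.91, and 14 had a higher and 0 a lower difference. Without the blocks 7 members were called higher and without the DU145 PAGE4 pair 8 higher. LSS, the lanosterol synthase, had 216 and 246 with PBS and 129 and 148 with H2O2 in 22RV1 and 98.7 and 111 with PBS and 30.1 and 29.6 with H2O2 in DU145. It fell in all 4 pairs and most in DU145, a difference of 1.07 ± 0.12 (edgeR adjusted p = 9.85e-06). MVD, the mevalonate diphosphate decarboxylase, was lowered in DU145 only (-1.299 ± 0.11, against -0.03 ± 0.10). PDK4, which shuts pyruvate dehydrogenase (chr7:95583499-95596516, minus strand), had 25.0 and 54.6 with PBS and 74.6 and 181 with H2O2 in 22RV1 and 58.9 and 44.4 with PBS and 7.91 and 7.13 with H2O2 in DU145. Both 22RV1 pairs rose about 3-fold and both DU145 pairs fell over 6-fold, a difference of 4.42 ± 0.16 (edgeR adjusted p = 6.77e-12). HK2 and NDRG1, a hexokinase and a hypoxia-responsive gene, were raised in DU145 only, by 1.14 ± 0.09 and 1.83 ± 0.14. ELOVL5, a fatty acid elongase, was lowered in 22RV1 only (-0.96 ± 0.08). Of 16 fatty acid synthesis genes 6 had a higher and 3 a lower difference. Without the blocks 3 members were called higher and without the 22RV1 PAGE4 pair 5 lower. Of 31 glycolysis and hypoxia genes 5 had a higher and 4 a lower difference, a share of 29.0% against 16.3% of all genes. Without the blocks 0 members were called higher and without the 22RV1 PAGE4 pair 10 higher.

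The transferrin receptor TFRC (chr3:196012511-196082153, minus strand), which imports iron, had 321 and 384 with PBS and 165 and 179 with H2O2 in 22RV1 and 238 and 228 with PBS and 625 and 674 with H2O2 in DU145. It fell in both pairs of 22RV1 and rose over 2-fold in both pairs of DU145, a difference of -2.51 ± 0.11 (edgeR adjusted p = 7.27e-11). Of 17 iron handling genes tested, 5 had a higher and 4 a lower difference, in no common direction.

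Luminal genes of the prostate fell in 22RV1. Of 23 tested, 18 were lowered and 1 raised in 22RV1, against 5 lowered and 3 raised in DU145, where both shares were near those over all genes (19.8% lowered and 16.9% raised). The difference was lower for 7 and higher for 3. SLC45A3 (prostein; chr1:205657851-205680509, minus strand) had 85.5 and 124 with PBS and 15.4 and 25.9 with H2O2 in 22RV1 and 12.3 and 12.9 with PBS and 13.2 and 11.9 with H2O2 in DU145. It fell in both 22RV1 pairs to near the level that DU145 held throughout, a difference of -2.36 ± 0.17 (edgeR adjusted p = 6.50e-08).

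GREB1, a hormone-responsive gene, PIM1, a survival kinase, and STEAP1, an epithelial antigen of the prostate, were lowered in 22RV1 only as well. GREB1 had 11.2 and 15.1 with PBS and 2.94 and 6.33 with H2O2 in 22RV1 and 8.66 and 8.04 with PBS and 11.2 and 8.96 with H2O2 in DU145. PIM1 had 18.7 and 18.3 with PBS and 7.12 and 5.34 with H2O2 in 22RV1 and 40.0 and 44.3 with PBS and 44.1 and 43.7 with H2O2 in DU145. STEAP1 had 115 and 114 with PBS and 34.6 and 46.9 with H2O2 in 22RV1 and 12.0 and 14.8 with PBS and 13.3 and 14.6 with H2O2 in DU145. In all 3 genes both 22RV1 libraries with H2O2 were below both with PBS, and the differences were -1.84, -1.63 and -1.57. ELL2, a transcription elongation factor, was lowered in 22RV1 (-0.39 ± 0.09) and raised in DU145 (1.77 ± 0.10). The 22RV1 markers share genes such as SLC45A3 with the luminal list, so they are not a separate set. All 10 tested were lowered in 22RV1, and the 11 summed markers had 2843 and 2636 CPM with PBS and 1246 and 1561 CPM with H2O2. In DU145, 5 or 6 of these markers had 3 or fewer raw counts in each library. The part that the marker genes had in the other results was not tested. Of the 10 tested 22RV1 markers 0 had a higher and 3 a lower difference, of 11 DU145 markers 5 a higher and 1 a lower, and of 5 markers of other cell types 0 a higher and 1 a lower.

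Target genes of YAP and SRF fell mainly in DU145. Of 21 tested, which respond to cell spreading and actin, 13 were lowered and 3 raised in DU145, against 4 lowered and 7 raised in 22RV1. The medians were -0.77 and 0.22, and 14 members had a higher and 2 a lower difference. Without the 22RV1 PAGE4 pair 4 members were called lower. MYL9, a myosin light chain, had 4.13 and 1.47 with PBS and 2.81 and 3.61 with H2O2 in 22RV1 and 78.7 and 90.1 with PBS and 27.3 and 23.9 with H2O2 in DU145. It was called in DU145 only, with a difference of 1.94 ± 0.35 (edgeR adjusted p = 0.000869), and lost the call in DESeq2 (adjusted p = 0.0831). The difference was 1.12 without the 22RV1 PAGE4 pair and 2.96 without the 22RV1 vector pair. ANKRD1, a YAP target, was below 1 CPM in 22RV1 and was lowered in DU145 (-1.505 ± 0.18). Tissue factor F3 was the opposite, at -1.19 ± 0.16 in 22RV1 and 0.69 ± 0.17 in DU145.

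Of 37 matrix, integrin and protease genes, 13 had a higher and 2 a lower difference, a share of 40.5% against 16.3% of all genes. Without the blocks 7 members were called higher, without the 22RV1 vector pair 4 lower and without the 22RV1 PAGE4 pair 4 lower. Of 23 epithelial, basal and mesenchymal genes 5 had a higher and 5 a lower difference. Without the blocks 1 member was called higher and 0 lower, without the 22RV1 vector pair 2 higher and 3 lower, without the DU145 vector pair 3 higher and without the DU145 PAGE4 pair 3 higher. TNC, the matrix protein tenascin C (chr9:115019575-115118207, minus strand), had 45.0 and 84.3 with PBS and 19.1 and 39.7 with H2O2 in 22RV1 and 16.6 and 29.9 with PBS and 75.1 and 121 with H2O2 in DU145. The PAGE4 libraries were higher than the vector libraries throughout, and yet both pairs of 22RV1 fell and both of DU145 rose about 4-fold, a difference of -3.25 ± 0.14 (edgeR adjusted p = 1.17e-10). The urokinase receptor PLAUR was also called opposite, -0.80 ± 0.24 in 22RV1 and 2.14 ± 0.17 in DU145. In 22RV1 it had 4.18 and 5.54 with PBS and 3.85 and 1.59 with H2O2, so it fell mostly in the PAGE4 pair. The integrin subunit ITGB4 was called the other way, 1.08 ± 0.27 and -1.08 ± 0.15. In 22RV1 it had 0.831 and 0.974 with PBS and 2.504 and 1.27 with H2O2, so it rose mostly in the vector pair and from few reads. KCNMA1, a calcium-activated potassium channel, had 62.2 and 65.5 with PBS and 18.8 and 19.8 with H2O2 in 22RV1 and 2.19 and 4.17 with PBS and 10.7 and 9.28 with H2O2 in DU145, and TMCC3, a membrane protein of the endoplasmic reticulum, 52.9 and 49.4 with PBS and 20.3 and 17.3 with H2O2 in 22RV1 and 6.90 and 7.75 with PBS and 18.1 and 26.2 with H2O2 in DU145. Both genes fell in 22RV1 and rose in DU145, and their levels in the lines lay closer together with H2O2 than with PBS. HMGA2, a chromatin protein, and SH3RF1, a scaffold of JNK signalling, were raised in DU145 only. HMGA2 had 9.23 and 6.64 with PBS and 8.88 and 7.32 with H2O2 in 22RV1 and 1.90 and 4.94 with PBS and 12.6 and 19.2 with H2O2 in DU145, a difference of -2.25 ± 0.29 (edgeR adjusted p = 4.43e-05). SH3RF1 had 49.6 and 20.4 with PBS and 28.3 and 21.5 with H2O2 in 22RV1 and 7.96 and 8.23 with PBS and 22.5 and 22.1 with H2O2 in DU145, a difference of -1.85 ± 0.25 (edgeR adjusted p = 5.33e-05).

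**Figure D5:**
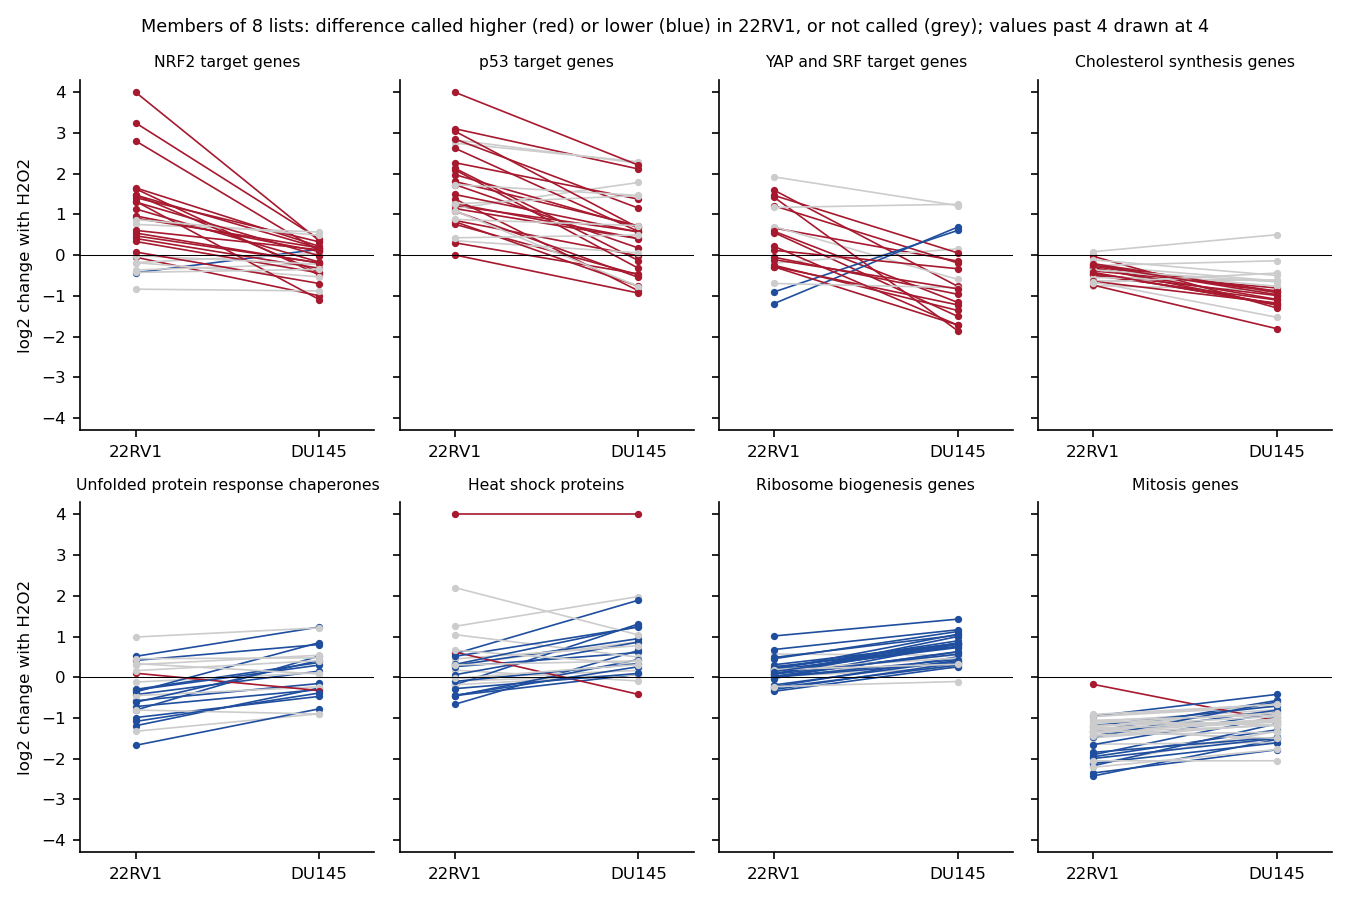
Each line joins the log2 change with H2O2 (y axis) of 1 gene in 22RV1 and in DU145, for the tested members of 8 lists, red for a higher and blue for a lower called difference in 22RV1 and grey for no call. Lines slope down from 22RV1 to DU145 for 20 called NRF2 target genes and 22 called p53 target genes, and up for 25 called ribosome biogenesis genes.

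Signalling genes held further opposite cases. TGFBR2, a TGF-beta receptor, was raised in 22RV1 (1.69 ± 0.14) and lowered in DU145 (-0.64 ± 0.11), as were ID1, an inhibitor of differentiation (0.62 ± 0.11 and -0.71 ± 0.11), and DKK1, a secreted WNT inhibitor (0.50 ± 0.13 and -1.10 ± 0.11). Of 18 genes of the TGF-beta, BMP and ID list 4 had a higher and 0 a lower difference, a share of 22.2% against 16.3% of all genes. Without the blocks 2 members were called higher. Of 19 WNT genes 5 had a higher and 1 a lower difference, a share of 31.6%. Without the blocks 2 members were called higher, without the DU145 vector pair 3 higher and without the DU145 PAGE4 pair 3 higher. Of 19 circadian clock genes 4 had a higher and 1 a lower difference, a share of 26.3% against 16.3% of all genes. LIF, a cytokine of the interleukin 6 family, had 1.751 and 2.30 with PBS and 15.2 and 12.4 with H2O2 in 22RV1 and 135 and 146 with PBS and 112 and 108 with H2O2 in DU145. It rose over 5-fold in both 22RV1 pairs while DU145 kept a far higher level, a difference of 3.13 ± 0.19 (edgeR adjusted p = 6.11e-09). NFKBIA, the NF-kB inhibitor, went the other way, with 70.2 and 73.3 with PBS and 49.3 and 43.0 with H2O2 in 22RV1 and 47.7 and 60.5 with PBS and 120.4 and 143 with H2O2 in DU145. Its difference was -1.93 ± 0.13 (edgeR adjusted p = 4.13e-08). Of 25 NF-kB and inflammatory genes 3 had a higher and 4 a lower difference, a share of 28.0% against 16.3% of all genes. Without the blocks 2 members were called lower and without the DU145 PAGE4 pair 2 lower.

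Of 28 interferon-stimulated genes, 4 were raised and 7 lowered in 22RV1, and 2 were raised and 11 lowered in DU145. Over all genes tested, 14.9% were lowered in 22RV1 and 19.8% in DU145. The difference was higher for 5 members and lower for 2, where 8.76% and 7.54% of all genes were called higher and lower. Leaving out 1 pair gave 3 (without the DU145 vector pair) to 7 (without the 22RV1 PAGE4 pair) higher and 0 (without the DU145 PAGE4 pair) to 2 lower, and 0 were lower without the blocks. IFIT3 was below 1 CPM in every 22RV1 library and was lowered in DU145 (-2.15 ± 0.25). Of 15 antigen presentation genes 7 had a higher and 0 a lower difference, among them TAPBP, the peptide-loading chaperone tapasin, lowered in DU145 only (-0.82 ± 0.09). Without the blocks 2 members were called higher and without the DU145 PAGE4 pair 3 higher. Of 36 autophagy and lysosome genes 9 had a higher and 2 a lower difference, a share of 30.6% against 16.3% of all genes. They were led by SQSTM1, the autophagy receptor p62, which rose by 1.604 ± 0.07 in 22RV1 and 0.48 ± 0.07 in DU145. Without the blocks 2 members were called higher, without the 22RV1 vector pair 5 higher, without the DU145 vector pair 4 higher and without the DU145 PAGE4 pair 3 higher. Of 35 proteasome subunits 6 had a higher and 0 a lower difference. The share called was 17.1%, near the 16.3% of all genes tested, of which 8.76% were called higher. The largest difference was 0.53 for PSMD4, a ubiquitin receptor. Without the blocks 0 members were called higher, without the 22RV1 vector pair 2 higher, without the DU145 vector pair 1 higher and without the DU145 PAGE4 pair 3 higher.

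The lines also started from different levels. Of the 440 genes raised in 22RV1 only, 373 (84.8%) had the lower PBS level in 22RV1, against 48.0% of all genes tested. Their median log2 ratio of 22RV1 over DU145 was -1.24 with PBS and -0.43 with H2O2. Among genes in opposite directions and raised in 22RV1 this share was 79.0%, and among those raised in DU145 27.4%. For genes lowered in 22RV1 only it was 29.1%. The median ratio went from -1.69 with PBS to -0.28 with H2O2 in the opposite class raised in 22RV1, from 1.00 to -0.10 in the opposite class raised in DU145, and from 0.55 to -0.15 for genes lowered in 22RV1 only. In these 4 classes the median levels of the lines lay closer together with H2O2 than with PBS, as for HMOX1 and SLC45A3. In the 2 larger classes they lay further apart with H2O2, going from 0.21 to -0.46 for genes raised in DU145 only and from -0.41 to 0.49 for genes lowered in DU145 only. The PBS libraries enter both the level and the change, so these shares are a description.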

How the data were processed

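RNA was sequenced from 8 bulk libraries, and the authors deposited raw counts per gene symbol in 1 table per line. Per the labels and the submitters' processing notes, reads were aligned to GRCh38 with HISAT2 2.1.0 and counted with featureCounts 1.6.0. The strand setting and annotation release are not given in the sources used here. The tables held the same 58828 symbols, of which 26 were spelled as dates, and 41771 had a read. Total counts were 25482984 to 43310401, and intervals from them would cover counting error only.

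Both tables were joined by symbol. The study's methods give no test for a comparison between lines, so edgeR 4.0.16 (R 4.3.3) was fitted over all 8 libraries with TMM scaling, filterByExpr (minimum count 10; 22418 genes kept), the 4 line by construct pairs as blocks and an H2O2 term per line, which left 2 residual degrees of freedom and a median prior of 14.96. The quasi-likelihood test was applied to each H2O2 term and to their difference, with Benjamini-Hochberg adjustment over all genes. An exact permutation test of 2 pairs against 2 cannot go below a two-sided p of 0.333 and was not used. The pairing comes from the construct, which names the cells that PBS and H2O2 libraries share: the deviation of the constructs correlated between PBS and H2O2 at r = 0.517 in 22RV1 and 0.356 in DU145 over 10256 genes. These genes had a mean CPM of at least 5 in each line. Over the same genes the vector and PAGE4 changes correlated at r = 0.867 in 22RV1 and 0.931 in DU145. Over all 22418 genes tested they correlated less, at r = 0.689 and 0.772.

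Genes were named by a rule: in each class of response in 1 line or in opposite directions, the 4 with the largest difference among called genes with a mean CPM of at least 5 in each line and pair changes that did not overlap, and in each of 43 gene lists up to 4 called members with a mean CPM of at least 5 in a line, together with PAGE4, SOD1, HMOX1, MT-RNR1, MT-RNR2, CDKN1A and CD44. A few genes that the rule would name are not reported here. Members and lists were chosen with earlier results of these data known. Promoters and gene positions came from RefSeq and GENCODE on GRCh38. The ER stress element was added to the motifs after the values were seen. On simulated counts of 21670 genes for this difference, 61 of 100 genes changed 2-fold and 100 of 100 changed 4-fold were recovered, with 3 false calls. The simulation gave every gene the same dispersion, had no construct effect and no other H2O2 effect, and changed only genes expressed in both lines. It checks that the fit runs as meant and does not measure the share of false calls in the real data. Alternatives were DESeq2 1.42.0 with its Wald test, its size factors in edgeR, other filters, no mitochondrial genes, no blocks, a fold limit, and leaving out each pair.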

Additional observations from a re-analysis of the deposited data

Results flagged for a closer look

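The change with H2O2 differed between the lines for 3655 genes by edgeR's quasi-likelihood test of the line by treatment term, and it was opposite, with both lines past the test, for 252 genes raised in 22RV1 and for 157 genes raised in DU145. The genes named for these classes are listed with the 22RV1 change minus the DU145 change on the log2 scale.

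Among genes raised in 22RV1 only, HMOX1 differed by 4.05, OSGIN1 by 2.71, NR4A3 by 2.599 and FDXR by 2.42. Among genes lowered in 22RV1 only, SLC45A3 differed by -2.36, GREB1 by -1.84, PIM1 by -1.63 and STEAP1 by -1.57. For genes raised in DU145 only the differences were -2.80 for SPRY4, -2.25 for HMGA2, -2.23 for MT-RNR1 and -1.85 for SH3RF1. For transcripts lowered in DU145 only they were 5.87 for MT-TV, 5.80 for MT-TY, 4.32 for MT-TE and 3.88 for MT-ATP8. In opposite directions and raised in 22RV1, MT-TC differed by 5.52, MT-TL1 by 5.21, PDK4 by 4.42 and LIF by 3.13. In opposite directions and raised in DU145, KCNMA1 differed by -3.40, TNC by -3.25 and TMCC3 by -3.02. All 23 genes were tested by the interaction term itself.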

How the results depend on the processing

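Without the replicate block, which treats the constructs as unpaired, 1533 genes were called for the difference (844 higher and 689 lower in 22RV1), 1851 were raised and 2004 lowered in 22RV1, 1197 responded in 1 line only and 157 were opposite. All 1533 were among the 3655, with the same sign. With an absolute difference over 1 required, 1313 were called (906 higher and 407 lower), and the DESeq2 Wald test called 1289 higher. Leaving out 1 pair gave 2121 to 4252 genes for the difference, 1146 to 1903 higher and 975 to 2349 lower. The counts for 22RV1 were 1533 to 2708 raised and 2169 to 3405 lowered, lowest without its vector pair, and for DU145 2363 to 4617 raised and 2780 to 4709 lowered, lowest without its PAGE4 pair. Responses in 1 line only numbered 1482 to 3193 and opposite ones 241 to 429. The cause was not tested, although leaving out a pair also removes libraries from the fit.

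With DESeq2 size factors 3856 genes were called (1845 higher and 2011 lower), and without a filter 4080 of 41771 (1715 higher and 2365 lower). Every gene called both in the main and in an alternative setting kept its sign.

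Of 157 named genes called for the difference, 48 lost the call without the block, 17 with the DESeq2 Wald test, and 10 to 21 without a single pair. The sign turned for HSPA6, which differed by -2.36 without the 22RV1 vector pair and 3.11 without the 22RV1 PAGE4 pair, the extremes over the pairs. It also turned for 2 uncalled genes. Over the pairs PAGE4 ranged from -3.40 to 0.0159 and CD44 from -0.0042 to 0.0748, and CD44 was -0.0248 without a filter. With 1 library per condition, a culture effect of a library cannot be told apart from its treatment, and genes with few reads in a line have no precise change there.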
